A study of Mus musculus with 2 samples.

Results

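The genes described here encode the proteins of the cytosolic ribosome. They were taken by symbol (Rpl or Rps with a number and an allowed ending, *Rplp0* to *Rplp2*, and *Rpsa*). *Rps6k* kinases and symbols with -ps, a suffix for pseudogenes, were left out. The annotation used here gives some -ps genes, such as *Rpl10-ps3*, as protein coding. The rule found 87 of the 23628 genes listed in each library. Of these, 77 are the core genes, 46 for the large and 31 for the small subunit, and 10 are paralogs or extra copies of a core gene. *Fau* and *Rack1*, whose symbols the rule does not match, also encode proteins of the small subunit and are described with them. *Rpl36al* and *Rps27rt*, outside the rule as well, are set beside their parent genes below.

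The ribosome translates messenger RNA into protein. Its small subunit reads the message and its large subunit joins the amino acids, and each subunit is a scaffold of ribosomal RNA that carries, as a rule, a single copy of each protein. Ribosomal protein messages are short and abundant in most cells, and many start with a run of pyrimidines, the terminal oligopyrimidine (TOP) tract, through which mTORC1 signalling controls their translation. Mammalian genomes also hold many processed pseudogenes of these genes, which are copies of the spliced message.

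Both libraries were of a single condition, *Sox9* GFPHi chondrospheres, named here replicate 1 and replicate 2, so every difference between them is a spread between replicates and no test between groups was possible. The cells came from femoral heads of homozygous *Sox9* IRES-EGFP pups, whose GFP is driven by the *Sox9* locus, at postnatal day 7. Cells of high GFP and without the lineage markers CD31, Ter119 and CD45 were sorted and grown for 3 to 4 weeks in 1% methylcellulose at 5% oxygen. The medium held 10% serum with FGF2, BMP4, IGF1, LIF and TGF-β1, and no group without these factors was analysed here. The pups were harvested separately in the study, so the spread holds differences between animals, cultures and libraries together. Values are CPM, a gene's counts per 1000000 reads on genes. Where a pair of values is given with no further word, replicate 1 comes first and replicate 2 next.

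The sequences that matter for the values are of 3 kinds. The first are the primers for *Rpl7*, the large subunit gene to which the study's quantitative PCR was normalised, printed 5′ to 3′ with no base in capitals.
Rpl7 forward primer: accgcactgagattcggatg
Rpl7 reverse primer: gaaccttacgaacctttgggc
They enclose 132 bases of the principal *Rpl7* message, and the same amplicon length was found in the transcripts of the pseudogenes *Gm12174* and *Gm6543*.

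The second kind shows how alike a member and its pseudogene are. Each pair gives a stretch of 29 bases of a member's coding sequence and the same stretch of the listed pseudogene with the highest level among those that resemble it, from the GENCODE M21 transcripts, with the base that differs in capitals.
Rps28: ttcgagagggtgacGtgctcaccctattg
Gm10263: ttcgagagggtgacAtgctcaccctattg
Rps13: cgggtgctcccaccTaattggaaatatga
Rps13-ps1: cgggtgctcccaccCaattggaaatatga
Counted from 1 at the 5′ end of the member's principal transcript, the differences are G167A for *Rps28* and T499C for *Rps13*. Over the whole alignment, *Rps28* and *Gm10263* differed at 3 of 271 aligned bases with 1 gap, and *Rps13* and *Rps13-ps1* at 2 of 522 bases. A read of 50 bases that covers no such base is the same in both.

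The third kind shows the start of 5 members from the RefSeq promoter set (build GRCm38.p6), as 15 bases before and 15 bases from the start on, read on the gene's own strand, with the letters CTTTCC or, where those are absent, CTTTC in capitals.
Rpl18 (chr7:45718056-45718085, plus strand): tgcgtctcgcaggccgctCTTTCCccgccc
Rpl38 (chr11:114668565-114668594, plus strand): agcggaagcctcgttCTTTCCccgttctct
Rpl28 (chr7:4792950-4792979, plus strand): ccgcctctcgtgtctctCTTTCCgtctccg
Rps27 (chr3:90213634-90213663, minus strand): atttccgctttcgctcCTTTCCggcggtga
Rplp2 (chr7:141447636-141447665, plus strand): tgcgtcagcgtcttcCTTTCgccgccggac
In *Rpl38* and *Rplp2* the capitals begin at the RefSeq start, which lies 46 and 61 bases from the GENCODE start of these genes. Of the 77 core genes, 57 had an entry in this set. CTTTCC on the sense strand of this window was found in 8 of the 57 (14%) and in 1.42% of all 32851 promoters, and CTTTC, which every CTTTCC holds, in 15 (26.3%) and 4.05%. A run of 8 or more pyrimidines was found in 23 of the 57 windows (40.4%), against 12.0% of all promoters, and the first base was a C in 19 (33.3%), against 16.3%. In the whole 300 bases, on either strand, CCGGAAG, letters found in sites of ETS factors, were present in 22 of the 57 (38.6%), against 8.86% of all. ATGGCGG, letters found in YY1 sites, were present in 9 (15.8%, against 4.05%), and TATAAA, the letters of a TATA box, in 5 (8.77%, against 13.6%). The RefSeq start lay within 5 bases of the GENCODE start for 17 of the 57 genes, with a median distance of 29 bases, so the window often misses the start that GENCODE gives. The 15 genes with CTTTC in the window had a median centred log2 ratio between the libraries of 0.03 and the other 42 of 0.06.

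Low values moved in steps of 0.0231 and 0.0237 CPM. If a step is a read, the libraries held about 43280500 and 42150300 reads on genes, and a gene at 0 may have had up to 0.0693 and 0.0712 CPM (3 reads). All 6 chondrocyte markers were detected, with summed levels of 177256 and 121748 CPM, mostly from *Col2a1* at 148953 and 100682 CPM. *Matn1* differed most, at 902 and 29.2 CPM, and only *Sox9*, at 252 and 279 CPM, was higher in replicate 2. Endothelial and erythroid markers (0 of 3 each at 1 CPM) had sums of at most 0.23 CPM, with *Cdh5* and *Kdr* at 0. Skeletal muscle markers (0 of 3) had at most 0.86 CPM with *Myog* at 0, and leukocyte markers (1 of 2) at most 2.59 CPM with *Ptprc* at most 0.05 CPM. Of the 5 fibroblast markers 3 reached 1 CPM, with sums of 2047 and 854 CPM carried by *Col1a1* and *Dcn*, while *Thy1* and *Pi16* stayed at or below 0.21 CPM. Osteoblast markers (3 of 4 at 1 CPM) had sums of 4.4 and 50.7 CPM. In replicate 1 the sum came mostly from *Ibsp* (2.24 CPM) and *Sp7* (1.96 CPM). In replicate 2 it came mostly from *Dmp1*, a marker of late osteoblasts, which had 0.12 and 40.4 CPM. The 10 highest genes of each library made up 43.4% and 34.7% of its CPM, which lowers the CPM of every other gene more in replicate 1. The part of these differences in the values below was not tested.

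The share of the ribosomal protein genes was taken over reads, with no division by transcript length, so it is not a share of messages. All 87 together held 1.5% of the CPM of replicate 1 and 1.92% of that of replicate 2. The large subunit core genes held 0.881% and 1.12%, the small subunit core genes 0.603% and 0.781%, and the 10 copies 0.0144% and 0.0189%. All 77 core genes were detected in both libraries, with mean levels from 11.9 to 1291 CPM and a median of 181 CPM, beside a median of 16.2 CPM over the 12631 genes whose mean reached 1 CPM. In bulk RNA, fewer cells of a type and less RNA per cell cannot be told apart.

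Per kb of the principal transcript, the median core gene stood at 230.1 and 268 CPM per kb, and the quartiles of the mean levels were 160.3 and 367 CPM per kb. The SD among core genes was 1.28 on the log2 scale in both libraries, and the order was nearly the same in both, with a Spearman correlation of 0.97 across the 77 genes, which share their libraries and their lengths. Small subunit genes had a higher median than large subunit genes, 249.5 against 206 CPM per kb in replicate 1 and 323 against 245 CPM per kb in replicate 2, which is a log2 difference of 0.28 and 0.40.

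**Figure D1:**
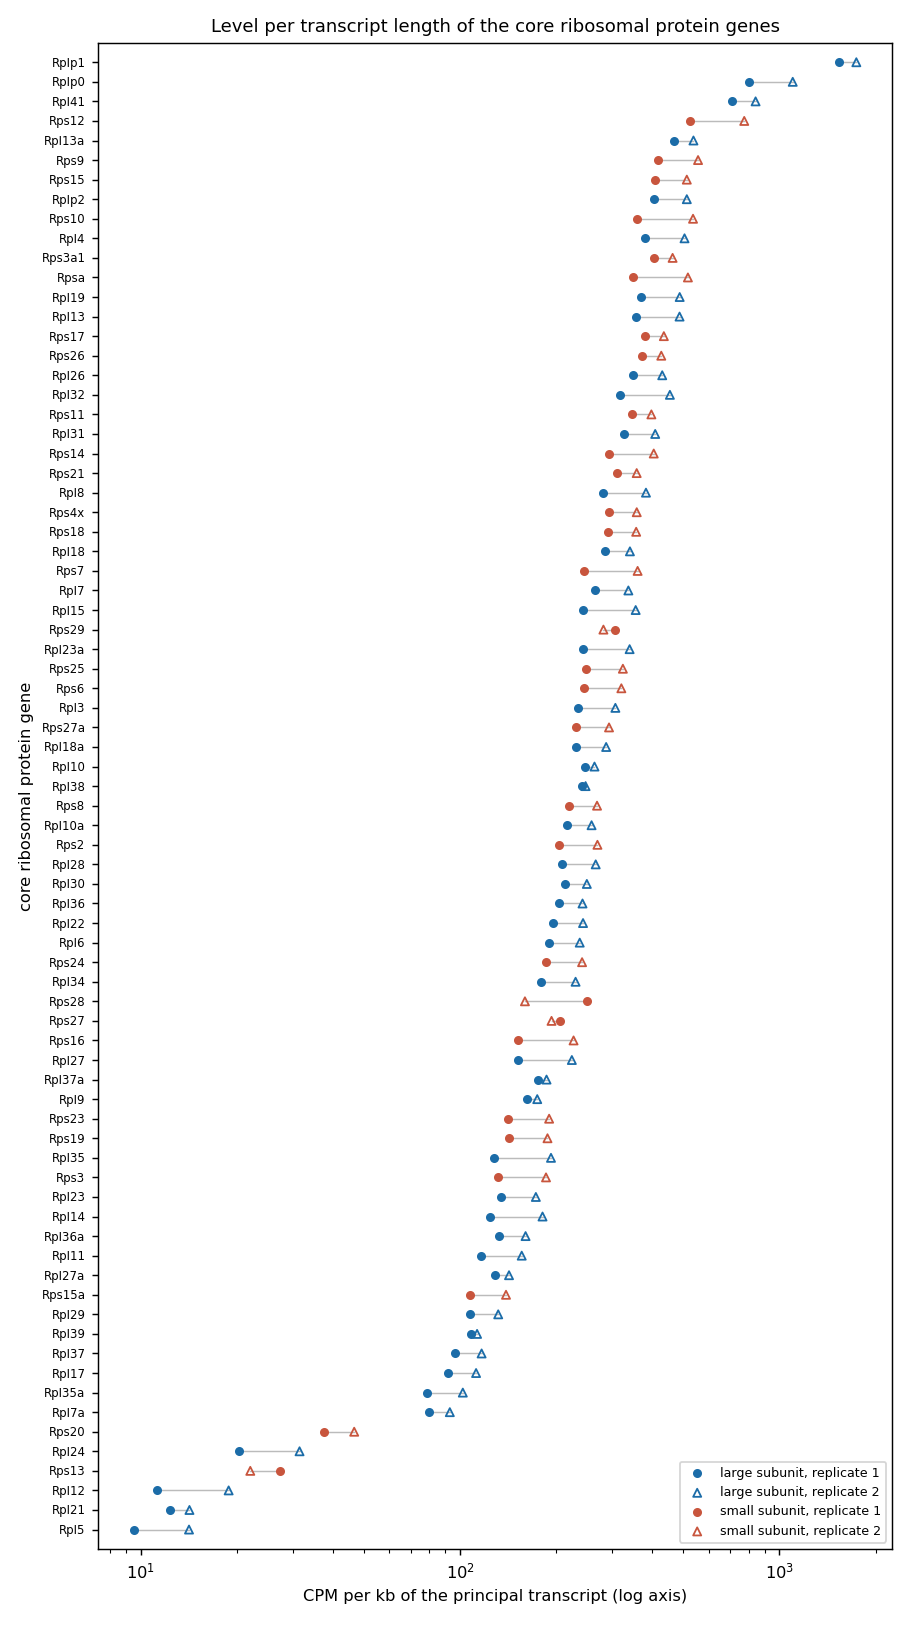
For 76 of the 77 core genes (vertical axis), the rows are ordered by mean level per length, with the level in CPM per kb of the principal transcript on a log axis, a filled circle for replicate 1 and an open triangle for replicate 2, blue for the large and red for the small subunit. The quartiles of the mean levels over all 77 core genes are 160.3 and 367 CPM per kb. *Rplp1* stands highest at a mean of 1641 CPM per kb, and 5 genes from *Rpl24* to *Rpl5* lie below 30 CPM per kb on average.

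The highest levels belonged to *Rplp1* and *Rplp0*, genes of the stalk of the large subunit, the flexible arm that recruits translation factors. *Rplp1*, which encodes an acidic stalk protein, had 1540 CPM per kb in replicate 1 and 1741 in replicate 2. *Rplp0*, the base of the stalk, followed at 801 and 1101 CPM per kb. *Rplp2*, the partner that pairs with the *Rplp1* protein, had 406 and 513 CPM per kb and ranked 8 among the core genes by mean level per kb. *Rplp1* was thus 3.80-fold and 3.40-fold above *Rplp2* within the same library. The ranges of the 3 stalk genes over the libraries did not overlap. As CPM, *Rplp0* (chromosome 5 from 115559467 to 115563727, GRCm38) had 1088 and 1495 CPM, a mean of 1291 ± 287 CPM (SD, n = 2), and *Rplp1* (chromosome 9 from 61913284 to 61914542) had 769 and 869 CPM.

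*Rpl41* came next after *Rplp0*, the smallest core protein by coding length (75 bases without the stop codon), at 713 and 842 CPM per kb. *Rps12*, a small subunit protein of the beak, had 524 and 776 CPM per kb, and *Rpl13a*, a large subunit protein known for a role in translational silencing outside the ribosome, had 466 and 538 CPM per kb. Neighbours from *Rplp0* down to *Rpl13a* overlapped in their ranges over the libraries, so their order is not fixed by these data. Per coding length, *Rpl41* stood above *Rplp1*, and *Rps12* was not among the 5 highest. *Rpsa*, which encodes the small subunit protein also known as the laminin receptor, had 557 and 826 CPM, or 348 and 517 CPM per kb.

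At the other end stood *Rpl5*, *Rpl21*, *Rpl12*, *Rps13* and *Rpl24*, the same 5 genes in both libraries and also per coding length. *Rpl5*, which carries 5S RNA into the large subunit and can bind the Mdm2 protein, had 19.5 and 29.0 CPM, or 9.53 and 14.2 CPM per kb. *Rpl21* had 11.1 and 12.8 CPM. *Rpl12*, a protein at the foot of the stalk, had 13.9 and 23.4 CPM. *Rps13* had 16.1 and 13.0 CPM and was one of 4 core genes with a lower CPM in replicate 2. *Rpl24*, a late-joining protein at the subunit interface, had 13.7 and 21.3 CPM. These low values sit beside higher values of genes that share their sequence, described next.

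The sequence of the core genes is widely shared. Of all stretches of 50 bases, the read length, in a principal core message, a median of 55.5% occurred exactly in the transcripts of another gene, and for 47 core genes more than 50% did. Genes that share at least 100 such stretches with a member are called lookalikes here. A total of 68 core genes had at least 1 listed lookalike. The 270 listed lookalikes that are not members themselves held 0.356% and 0.433% of all CPM, and 24 of them had a mean of at least 50 CPM.

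For 9 core genes the lookalikes summed to more CPM than the member in both libraries. The transcribed processed pseudogene *Gm15500* (chromosome 7 from 114705217 to 114706235) was listed at 320 and 439 CPM, beside 19.5 and 29.0 CPM for *Rpl5*. It was identical to the *Rpl5* message over 1018 aligned bases of the 2045 in the principal transcript. *Gm10275* (chromosome 10 from 29698746 to 29699380), identical to *Rpl12* over 634 of its 1242 bases, was listed at 290 and 415 CPM. *Rpl24* (13.7 and 21.3 CPM) shares 69.4% of its stretches with *Gm28037*, a processed transcript at the *Rpl24* locus itself (chromosome 16 from 55966343 to 55980721), which was listed at 111 and 145 CPM. Where the sequences are identical, a read of the member and a read of its lookalike cannot be told apart.

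The same held at lower levels for the small subunit genes. *Rps13-ps1* was listed at 72.5 and 94.1 CPM beside 16.1 and 13.0 CPM for *Rps13*, and *Gm10263* at 94.8 and 87.7 CPM beside 67.6 and 43.2 CPM for *Rps28*. *Rpl21* had 16 listed lookalikes that summed to 70.7 and 78.8 CPM, of which *BC004004* held 67.6 and 74.3 CPM. *Rpl23*, *Rpl27a* and *Rpl11* were each near 100 CPM or above and their lookalikes higher still, with *Gm9794* at 191 and 234 CPM beside 142 and 183 CPM for *Rpl23*. *Gm7536*, identical to *Rpl27a* over 444 of its 1158 bases, had 191 and 213 CPM. *Gm10288*, which differs from *Rpl11* at 1 of 537 aligned bases, had 122 and 166 CPM.

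**Figure D2:**
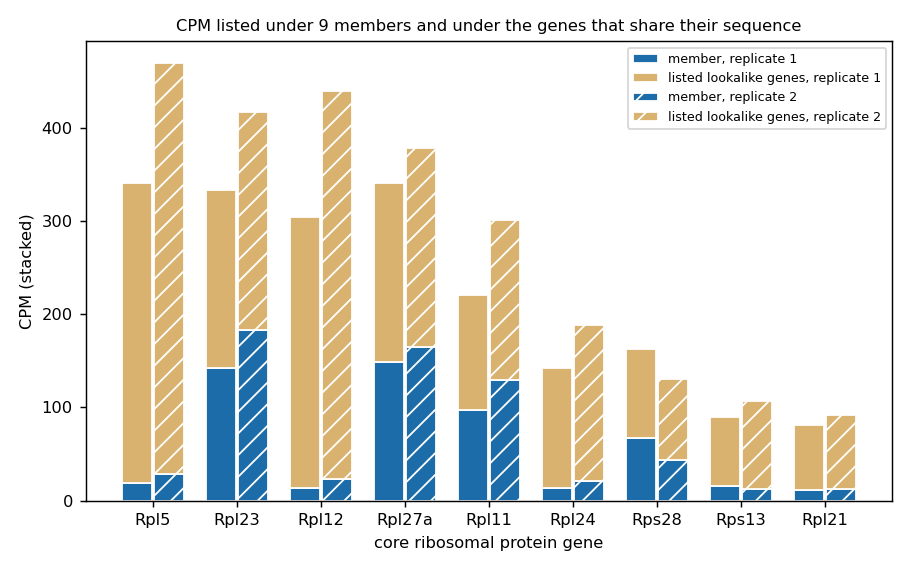
Stacked bars give the CPM (vertical axis) of 9 core genes in blue and the summed CPM of their listed lookalike genes in tan, plain bars for replicate 1 and hatched bars for replicate 2. In each bar the tan part is the larger: for *Rpl5* in replicate 1, the member's 19.5 CPM lie under a total of 340 CPM.

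With the CPM of the lookalikes added to each member, a gene that resembles several members counting with each, the spread of the levels per kb fell from 1.28 to 0.77 on the log2 scale in replicate 1 and from 1.28 to 0.78 in replicate 2. The ratio of the highest to the lowest core gene went from 138-fold to 30.5-fold. *Rpl5* then stood at 340 and 469 CPM and *Rpl12* at 304 and 439 CPM. Of the 5 lowest genes, only *Rpl21* was still among the 5 lowest, beside *Rps20*, *Rpl35a*, *Rpl7a* and *Rpl39*, and *Rps20* is divided by a principal transcript of 3706 bases. The difference between the small and large subunits moved from 0.34 to 0.14 as the mean of the libraries, so it depends on where shared reads are placed. At the top, *Rplp1*, *Rplp0*, *Rpl41* and *Rps12* kept their places, and lookalikes added at most 16.6 CPM to any of these but *Rps12*, to which they added 21.2 and 25.7 CPM.

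Between the libraries, the ratios of most core genes lay close together. The log2 ratio of replicate 2 to replicate 1, with a pseudocount of 0.1 CPM, had a median of 0.34 over the core genes and 0.30 over all 12631 tested genes. Centred on the latter, the core median was 0.03, with an SD of 0.21 across core genes and 0.83 across all genes. Before centring, 73 of the 77 core genes were higher in replicate 2. The median of all tested genes was higher there too, by 0.30, so this count is not a trait of the core genes. Within 0.3 of the centre on the log2 scale lay 71 core genes (92.2%), beside 49.8% of all genes. Among genes between 100 and 500 CPM, where 54 core genes fall, the SD was 0.15 for the core genes and 0.64 for all 954 genes, and 98.1% against 58.7% lay within 0.3 of the centre. Between 50 and 100 CPM, 83.3% of the 12 core genes and 62.9% of all genes did. Of the 6 core genes between 10 and 50 CPM, 50% lay within 0.3 of the centre, against 59.3% of all genes. The SD there was still lower for the core genes, at 0.38 against 0.64.

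Of the 87 genes, 84 reached a mean of 1 CPM. None of the 84 was past 2-fold after centring, beside 13.5% of all genes, and none was past 1.5-fold higher, beside 13.5% of all genes. Past 1.5-fold lower were 2 genes, *Rps28* and *Rps13*, beside 13.5% of all genes. The 3 genes under the filter were copies, and 2 of them, *Rpl6l* (1.37 and 0.33 CPM) and *Rps3a3* (1.02 and 0.10 CPM), had centred log2 ratios of -2.07 and -2.79.

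*Rps28*, a small subunit protein near the messenger RNA exit, had 67.6 and 43.2 CPM, a centred log2 ratio of -0.95. *Rps13* followed at -0.61, *Rps29*, a zinc-binding small subunit protein, at -0.42 (119 and 110 CPM), and *Rps27*, also zinc-binding, at -0.40 (71.1 and 66.7 CPM). *Rpl38*, a large subunit protein known for translation of Hox messages, was the fifth at -0.27 (83.2 and 85.2 CPM). The first 4 had lower CPM in replicate 2, and all but *Rpl38* belong to the small subunit. With lookalikes added, *Rps28* stood at -0.62 and *Rps13* at -0.06, so *Rps13* was past 1.5-fold only without them. *Rps27* then stood at -0.26, *Rps29* at -0.43 and *Rpl38* at -0.26.

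In the other direction the values were smaller. *Rpl12* had a centred log2 ratio of 0.44 and *Rpl24* of 0.33, both at under 25 CPM and with lookalikes that hold most of the reads, and with those added the ratios were 0.22 and 0.10. *Rpl35* (121 and 182 CPM, 0.28), *Rps10* (179 and 267 CPM, 0.28) and *Rps16* (168 and 251 CPM, 0.28) came next. *Rps16* has listed lookalikes with 51.9 and 57.8 CPM, and with these added its ratio was 0.19. Those of *Rpl35* had 76.0 and 87.7 CPM, and with these added its ratio was 0.15, while *Rps10* stayed at 0.26.

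**Figure D3:**
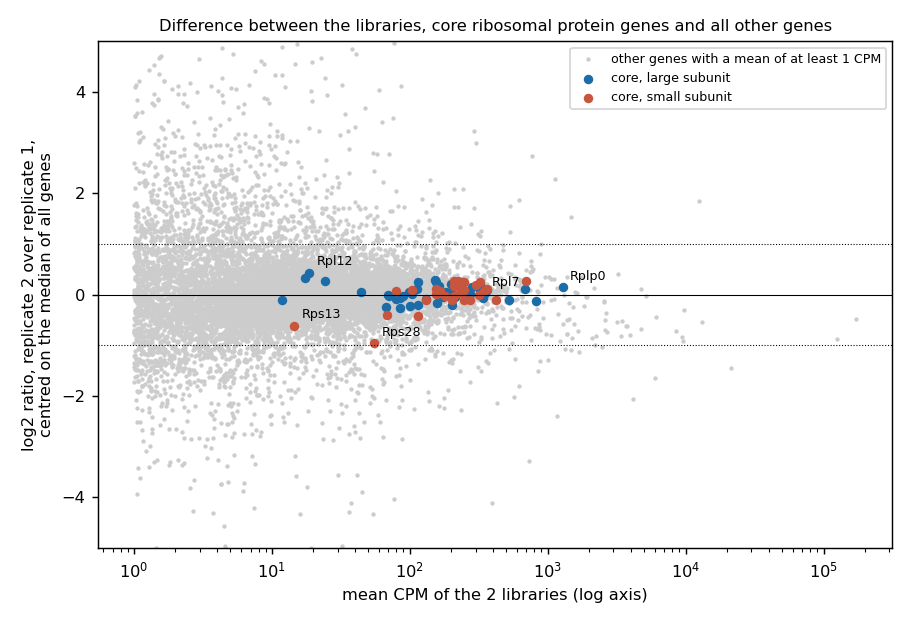
Each point is a gene whose mean reached 1 CPM, with the mean CPM of both libraries on a log horizontal axis and the centred log2 ratio of replicate 2 to replicate 1 on the vertical axis, grey for other genes, blue for large and red for small subunit core genes, and dotted lines at 2-fold. The core genes form a narrow band around 0, from *Rps28* at -0.95 to *Rpl12* at 0.44, and 16 other genes lie outside the plotted range.

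Of the 5 core genes furthest down, all but *Rps13* (589 bases) had a principal transcript under 400 bases. All 6 core genes under 400 bases lay below the centre, with a median of -0.33. Among them were *Rps28* (271 bases), *Rps27* and *Rpl38* (345 bases each) and *Rps29* (390 bases). The rest, *Rps21* (394 bases) and *Rpl36* (383 bases), lay nearer to the centre, at -0.10 and -0.06. The 32 core genes between 400 and 700 bases had a median of 0.02 and the 39 longer ones of 0.09. Other genes whose mean reached 10 CPM had a like order, with a median of -0.23 for the 37 under 400 bases, -0.01 for the 219 between 400 and 700 bases and 0.02 for the 7478 longer ones. Across the 77 core genes, which share their libraries, the centred ratio and the transcript length had a Spearman correlation of 0.37 and a Pearson correlation of 0.29. The length limits were set after the values had been seen, and the part of fragment selection or RNA quality in this order was not tested.

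**Figure D4:**
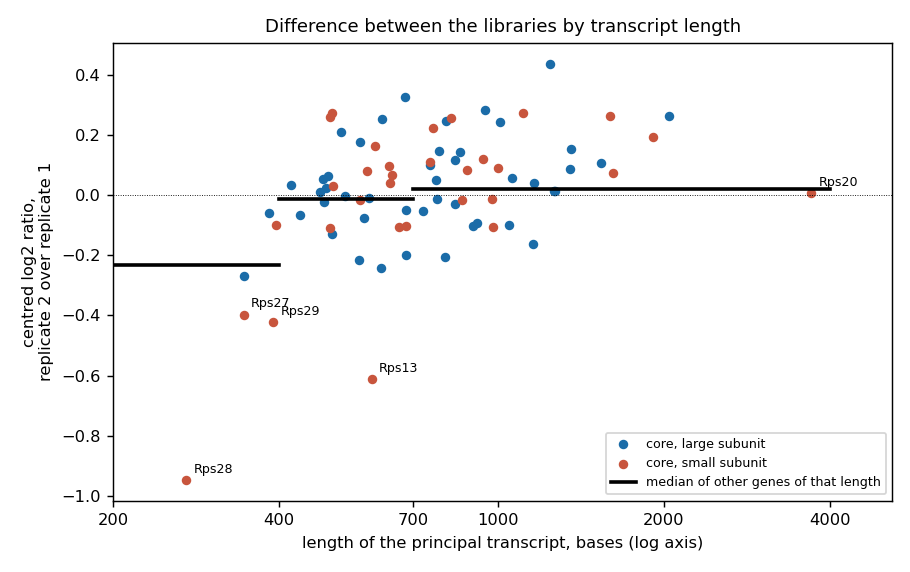
The horizontal axis is the length of the principal transcript in bases on a log scale and the vertical axis the centred log2 ratio of replicate 2 to replicate 1, with blue points for large and red points for small subunit core genes. Black lines give the median of other genes whose mean reached 10 CPM in 3 length classes, -0.23, -0.01 and 0.02, and the 6 shortest core genes all lie below 0.

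Of the 77 core genes 32 lay below the centre, among them the 4 on the X chromosome, each of which had a higher CPM in replicate 2. *Rps4x* had 285 and 348 CPM and a centred ratio of -0.01. *Rpl10*, a late-joining protein near the peptidyl transferase centre, had 197 and 211 CPM and -0.21. Its lookalike *Rpl10-ps3*, identical over 740 aligned bases, was listed at 165 and 159.6 CPM. *Rpl36a* had 63.7 and 77.4 CPM and -0.02, and *Rpl39*, a very small protein of the exit tunnel, 66.2 and 69.2 CPM and -0.24. None of the 4 was past 1.5-fold.

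Ribosomal proteins made as fusions to ubiquitin or a ubiquitin-like protein are released from it after translation. *Rps27a*, the small subunit fusion, had 147 and 186 CPM, or 230.1 and 293 CPM per kb. *Fau*, which carries a ubiquitin-like part before the small subunit protein, had 123 and 162 CPM. *Rack1*, a small subunit scaffold protein for kinases, had 432 and 582 CPM with 0.930% of its stretches shared. *Fau*, *Rack1* and *Rpl36al* had centred ratios between 0.09 and 0.13, above the core median of 0.03.

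The paralogs and extra copies were lower than their parents per length in both libraries, all 11 pairs with reads in both. *Rpl36al*, which encodes nearly the same protein as *Rpl36a*, was closest, at 52.1 and 68.8 CPM and a mean log2 ratio to *Rpl36a* of -0.35 ± 0.09 (SD, n = 2). *Rps27l*, a p53-induced paralog of *Rps27*, had 29.5 and 39.3 CPM, a log2 ratio to *Rps27* of -1.80 and -1.30. *Rpl7l1*, a factor of large subunit assembly related to *Rpl7*, had 45.8 and 59.1 CPM and a ratio of -2.91 ± 0.02 (SD, n = 2). *Rps4l*, a transcribed processed pseudogene in the annotation, had 16 and 29.5 CPM, and its centred log2 ratio between the libraries, 0.57, was above that of every core gene. *Rpl22l1*, known for splicing functions beside *Rpl22*, had 7.78 and 10.2 CPM and a ratio of -3.75 ± 0.05 (SD, n = 2). *Rpl39l*, a paralog known from male germ cells, was listed at 0.81 and 1.26 CPM, a ratio to *Rpl39* of -6.20 and -5.63. These 6 share no stretch of 50 bases with their parents, so their reads can be told from the parent's. Stretches shared with further genes remain, 85.5% of those of *Rpl36a* and 98.6% of those of *Rps27*. For *Rpl36al* and *Rpl22l1* the shares are 63.3% and 57.3%. The ratios of these genes thus still depend on where shared reads are placed.

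All but 1 of the remaining copies share sequence with the parent and are uncertain. *Rps27rt*, with 91.1% of its stretches in *Rps27*, had 27.5 and 34.8 CPM. By the summed length of all exons in place of the principal transcript, *Rpl36al* and *Rps27rt* stood at 0.06 and 0.32 above their parents on the log2 scale. *Rps3a2* (76.7% in *Rps3a1*) had 33.2 and 38.4 CPM beside 394 and 452 CPM for *Rps3a1*, and *Rps12l1*, all of whose stretches occur in *Rps12*, had 8.58 and 10.4 CPM. *Rpl6l* and *Rps3a3* share 61.8% and 49.6% of their stretches with *Rpl6* and *Rps3a1*. *Rpl32l* was listed at 0 in both libraries. Symbols with -ps, outside the rule, came to 160 listed genes that summed to 1535 and 1812 CPM, 44 of them at a mean of 1 CPM or more.

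*Rpl7*, the reference gene of the study's quantitative PCR, lay close to the middle of the core genes. It is on chromosome 1 from 16101295 to 16104662 (minus strand) and had 308 and 391 CPM, a centred log2 ratio of 0.04. Only *Rplp2* and *Rps15* lay nearer to the core median ratio. Its pseudogene *Gm12174*, which the primers also match, was listed at 8.36 and 10.1 CPM, and *Gm6543* at 0.11 and 0.23 CPM. Divided by *Rpl7* instead of by the library total, the log2 change of *Col2a1* from replicate 1 to replicate 2 went from -0.57 to -0.91, that of *Acan*, the cartilage proteoglycan, from -0.24 to -0.58, and that of *Sox9* from 0.15 to -0.20. Against the median of the core genes the same changes were -0.88, -0.55 and -0.17.

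Genes whose products make, regulate or work with ribosomes were set beside the core genes. By the centring, as many of all tested genes lie above 0 as below it. The 5 elongation factor genes, whose messages are known to carry TOP tracts, had a median centred ratio of 0.05, with none past 1.5-fold in either direction. *Eef1a1*, which brings aminoacyl-tRNA to the ribosome, had 4645 and 5651 CPM and -0.02, and *Eef1d* 72.5 and 107 CPM and 0.26. The 11 other TOP messages had a median of 0.11. Among these, *Tpt1*, the highest of them per kb, had 644 and 848 CPM and 0.09, *Npm1*, a nucleolar chaperone, 232 and 385 CPM and 0.43, and *Eif3f* 105 and 122 CPM and -0.09. All but 1 of these 11 lay above the centre, and none was past 1.5-fold.

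The 6 host genes of small nucleolar RNAs went the other way, with a median of -0.33 and 2 of 6 past 1.5-fold lower, beside the 13.5% of all genes. *Gas5*, whose introns hold many small nucleolar RNAs, had 251 and 199 CPM and -0.64, and *Snhg12* 47.3 and 32.5 CPM and -0.84, while *Snhg5* stood at 0.04. These transcripts also start with TOP tracts but are spliced RNAs with little coding function.

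Of the 16 initiation factor genes, 13 lay above the centre, with a median of 0.25, and 2 were past 1.5-fold higher, a share close to the 13.5% of all genes. *Eif2s1*, the regulated subunit of the factor that delivers the initiator tRNA, had 30.8 and 64.3 CPM and 0.76, *Eif6*, which keeps the subunits apart, 26.8 and 52.4 CPM and 0.66, and *Eif1* 295 and 272 CPM and -0.42. *Eif4g2* was the highest per kb, at 521 and 722 CPM on a principal transcript of 742 bases. The rank depends on that length, and no other length was tried for this gene. Of the 28 ribosome assembly genes, 23 lay above the centre, with a median of 0.17 and none past 1.5-fold. *Ncl*, the nucleolar protein nucleolin, had 295 and 406 CPM and 0.15, *Fbl*, the methyltransferase of ribosomal RNA, 17.3 and 29.8 CPM and 0.48, and *Nop10* 33.1 and 31.9 CPM and -0.36.

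The 10 RNA polymerase I genes, which transcribe ribosomal RNA, had a median of -0.05, from *Taf1c* at -0.77 (7.69 and 5.55 CPM) to *Polr1e* at 0.42 (4.04 and 6.76 CPM), and *Polr1d* was the highest per kb at 27.9 and 36.3 CPM. Among 17 tested genes of mTORC1 and *Myc* signalling the median was 0.05. *Deptor*, an inhibitor of mTOR, had 42.4 and 10.7 CPM, a centred ratio of -2.28 and the only gene of these lists past 2-fold. *Myc*, which drives ribosome production, had 15.2 and 34.3 CPM and 0.86. *Akt1s1* was the highest of the list per kb at 73.5 and 101 CPM, and *Mycn* was listed at 0 in both libraries. These regulators of ribosomal protein synthesis ranged from -2.28 to 0.86, and the core genes from -0.95 to 0.44.

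The 10 genes of chaperones, importins and related factors, not all dedicated to ribosomal proteins, had a median of 0.22. They ranged from *Pdcd2* at -0.34 (8.33 and 8.11 CPM) to *Grwd1* at 0.48 (6.42 and 11.2 CPM). *Nap1l1*, the highest per kb, had 77.1 and 128 CPM. The 5 genes of the p53 pathway, through which free *Rpl5* and *Rpl11* are known to act, all lay above the centre with a median of 0.40. *Ccng1* had 153 and 286 CPM and 0.60, *Cdkn1a*, the highest per kb, 133 and 217 CPM and 0.40, and *Mdm2* 122 and 158 CPM and 0.07. The 77 genes of the mitochondrial ribosome, by contrast, had a median of 0.00, a median level of 14.8 CPM and none past 1.5-fold. They ranged from *Mrps31* at -0.52 to *Mrps22* at 0.51, beside -0.95 to 0.44 for the core genes. Ratios that lie close together were thus not particular to the core genes. *Mrpl52* was the highest per kb at 22 and 29.7 CPM.

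**Figure D5:**
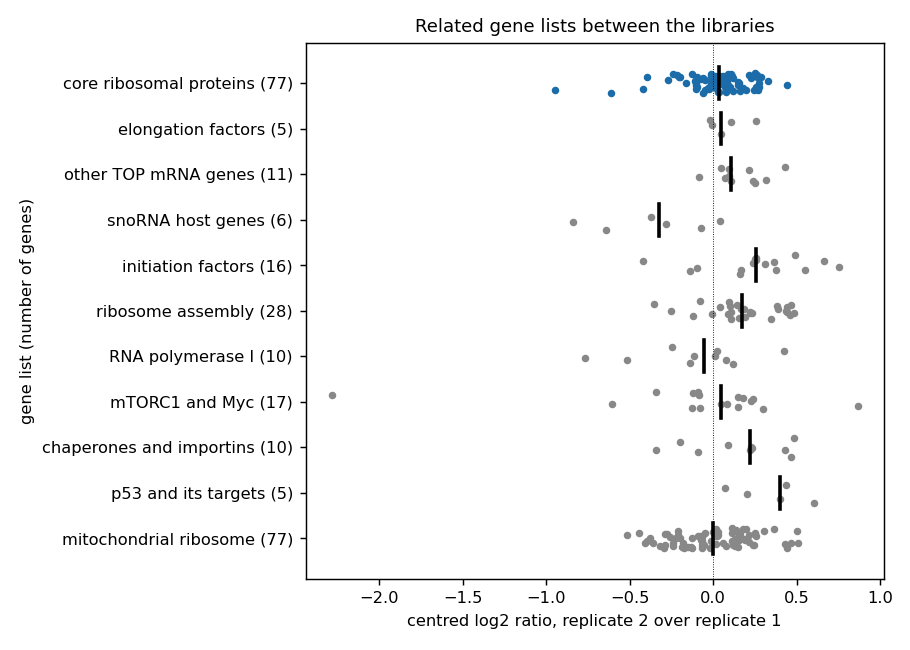
Each point is a gene whose mean reached 1 CPM, placed by its centred log2 ratio of replicate 2 to replicate 1 on the horizontal axis, with a row for each list, the number of genes in brackets and a black bar at the median. The core genes, in blue, centre on 0.03, the snoRNA host genes on -0.33 and the genes of p53 and its targets on 0.40.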

How the data were processed

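Poly(A) RNA of 2 libraries was sequenced as 50-base single-end reads. The deposited values are CPM. To make them, the authors used STAR 2.7.3a for alignment to GRCm38 (mm10) and Partek Flow 10.0.21.0801 for expectation-maximisation over the genes of GENCODE M25, so a read that matches several genes may be split between them. An offset of 0.0001 CPM was subtracted here. The values are not counts, so no count model was fitted, and with 1 condition no test was made. The members and gene lists were chosen with earlier results of these data known. Named genes are the stalk, X-linked, ubiquitin-fused and reference genes, all copies, the 5 highest and lowest core genes per kb, the 5 furthest between libraries in each direction, and from each related list the highest per kb and the furthest up and down. Named after their values were seen were *Rps20*, *Rpl11*, *Rpl23*, *Rpl27a*, *Rps15*, *Eif6*, *Mycn*, the lookalikes, 5 copies (*Rpl6l*, *Rpl32l*, *Rps12l1*, *Rps3a2* and *Rps3a3*) and the genes of the printed start windows. *Rps21* and *Rpl36* were also named after their values were seen.

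Lengths, positions and shared 50-base stretches come from GENCODE M21, an earlier release on the same build, in which 22967 of the 23628 symbols (97.2%) matched a single gene. The principal transcript is the APPRIS principal isoform. Intervals and floors cover counting error only. Some items are not reported here. The computation was tested on simulated data. Alternatives changed scaling, centring, pseudocount, filter, length and members. Those that add lookalikes or use coding length were chosen after seeing the data. Software was Python 3.11.15, numpy 2.4.6, pandas 2.3.3, biopython 1.88 and matplotlib 3.10.9.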

Additional observations from a re-analysis of the deposited data

How the results depend on the processing

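No paired analysis was possible because both libraries belong to 1 condition. Leaving out either library gives the other library's own value, which says nothing of stability: the median level was 161 to 199 CPM, the share of all CPM 1.5 to 1.92%, the SD of log2 level per length 1.28 in both, the small against large subunit difference 0.28 to 0.40 and the median paralog ratio -3.79 to -3.51. Without the 10 highest genes in the total, the mean of the medians of both libraries was 294 CPM in place of 179.9 CPM and the share 2.79% in place of 1.71%, which follows from the smaller total, and with lookalikes added the share was 2.10%. The median centred ratio of 0.03 became 0.21 with no filter on low values, since the many genes near 0 then set the centre, and stayed between 0.01 and 0.07 under the other settings. Past 1.5-fold were 2 core genes, 4 with no centring and 1 with lookalikes added. No core gene was past 2-fold under any setting tried. The SD of log2 level per length, 1.28, was 1.56 with the union of exons, 1.44 with the longest coding transcript, 1.23 with coding length, 1.36 over the 30 core genes whose stretches are not mostly shared and 0.77 with lookalikes added. The small against large subunit difference of 0.34 was 0.44 without division by length, 0.50 with the union of exons, 0.67 with the longest coding transcript, 0.78 over those 30 genes and 0.14 with lookalikes added. The median paralog ratio of -3.65 was -3.04 with the union of exons and -1.88 with coding length, which 6 of the 11 pairs have. Under the union of exons *Rpl36al* against *Rpl36a* turned to 0.060 and *Rps27rt* against *Rps27* to 0.32. Centring by TMM, a trimmed mean of log ratios, moved no median of the 11 related lists by more than 0.00374.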
